A study of Mus musculus with 8 samples.

Results

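The Schlafen genes are a family of mouse genes named after the German word for sleep, and 6 of them are described here, Slfn1, Slfn2, Slfn3, Slfn4, Slfn5 and Slfn8, of 32249 genes in the count tables. They were chosen by name after these tables had been analysed, because they were higher in CYR61 than in control libraries. Their values in that contrast are therefore given as a description. Slfn9, Slfn10-ps, Slfn14 and Slfnl1, the other 4 Schlafen genes in the tables, are given beside them.

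Schlafen proteins share an N-terminal domain that in several members binds or cuts transfer RNA. The mouse family has short members, Slfn1 and Slfn2, intermediate members, Slfn3 and Slfn4, and long members, Slfn5, Slfn8, Slfn9 and Slfn14, which carry a helicase-like C-terminal part. Slfn1 slowed the growth of mouse T cells when it was expressed in excess. Mice with a loss-of-function allele of Slfn2 have T cells and monocytes that fail to stay quiescent. Several members are induced by type I interferon in mouse macrophages, the cells that take up microbes and debris, and Slfn4 is known to fall as bone marrow cells mature into macrophages.

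The tested libraries held bone marrow cells of male C57Bl/6J mice, 10 weeks old per the labels, cultured with M-CSF, the macrophage growth factor, for 3 days and then given 4 µg/mL Cyr61 for 24 h. CYR61 is a matricellular protein, secreted into the matrix around cells, that binds integrins. The control libraries held the same culture without the protein, and all 8 libraries were exposed to M-CSF. There were 4 CYR61 and 4 control libraries, made on the HIVE platform, which catches single cells in microwells and tags each molecule. Whether the replicates came from separate mice or cultures is not stated in the labels. Every p-value below thus measures the spread between libraries, which may be technical and which the tests estimate partly or wholly over many genes.

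Values are from home-library cells, that is, barcodes with at least 300 genes and at most 20% mitochondrial counts, each kept in the library of its date stamp where it had most UMIs (tagged molecules). There were 9196 of them among 12848 barcodes that passed the first 2 limits, since many barcodes were listed in several libraries of a date. Barcodes at home in another library held 0.891% to 22.4% of the UMIs of passing barcodes in CYR61 libraries and 1.29% to 76.1% in control libraries. The home-library cells numbered 499 to 3604 in CYR61 libraries and 294 to 1058 in control libraries, and held 1149043 to 13933610 and 842528 to 3436577 UMIs. Replicates 1 and 2 of each group carried the earlier date stamp and replicates 3 and 4 the later. Against labels that call every mouse male, Xist RNA was at 1206 and 1152 CPM (a gene's share of the UMIs, scaled to a library total of 1e6) in CYR61 replicates 1 and 2 and at 1249 and 1213 CPM in control replicates 2 and 3. It was at most 1.16 CPM in the other 4 libraries, where Y-linked genes summed to 323 to 399 CPM. Macrophage markers (Csf1r, Adgre1, Cd68, Mertk, Fcgr1 and C1qa) were detected in every library and summed to 2641 to 2983 CPM in CYR61 and 1719 to 2218 CPM in control libraries. T cell and NK cell markers were at most 1.14 CPM, and monocyte markers summed to 19.5 to 54.6 CPM in CYR61 and 5.98 to 117 CPM in control libraries. Neutrophil markers summed to 286 to 2793 CPM in CYR61 and 428 to 1301 CPM in control libraries, and megakaryocyte markers to 586 to 1359 and 370 to 874 CPM. Of the neutrophil markers, S100a9 and S100a8 had 9365 and 5298 UMIs over all libraries, against 187 to 2730 for each of the others. The megakaryocyte sum was nearly all Pf4 (368 to 1349 CPM), while Ppbp, Itga2b and Gp9 were at most 24.9, 8.11 and 1.19 CPM. Besides the macrophage markers, the summed levels of 2 lists did not overlap between groups. Plasmacytoid dendritic cell markers summed to 305 to 722 CPM in CYR61 and 102 to 129 CPM in control libraries, nearly all from Bst2, which is also in the interferon response list below, while Siglech was at most 1.79 CPM. B cell markers summed to 2.61 to 6.57 CPM in CYR61 and 8.97 to 36.8 CPM in control libraries, mostly from Ighm. The part of these markers in the members' differences was not tested.

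The members lie together on mouse chromosome 11 (GENCODE vM21, build mm10), in a cluster of 344.386 kb. Slfn5 spans chr11:82951349-82964840 on the + strand and overlaps the antisense gene Slfn5os. Slfn9 (chr11:82978390-82991830), Slfn8 (chr11:83002158-83020810) and the pseudogene Slfn10-ps (chr11:83028130-83040042) follow on the - strand. Slfn2 (chr11:83065112-83070678), Slfn1 (chr11:83116849-83122670), Slfn4 (chr11:83175186-83190216) and Slfn3 (chr11:83191330-83215154) lie on the + strand, before Slfn14 at the other end (chr11:83275110-83286726). Slfnl1 is on chromosome 4.

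The 250 bases before the RefSeq start (GRCm38.p6) are shown for 5 promoters, those of Slfn5, Slfn8 and Slfn9, which hold the interferon element searched for, and those of Slfn1 and Slfn4, which do not and whose levels differed most between CYR61 libraries. They lie at chr11:82951852-82952101 (+), chr11:83020811-83021060 (-), chr11:82991831-82992080 (-), chr11:83116570-83116819 (+) and chr11:83174936-83175185 (+), and run 5′ to 3′ along the gene. Capitals mark matches on either strand to GAAA followed by any 2 bases and GAAA again, the core of the element through which type I interferon induces genes, or to CAGGAAGT, a form of the site of ETS factors such as PU.1 that was searched after the sequences had been read.
Slfn5: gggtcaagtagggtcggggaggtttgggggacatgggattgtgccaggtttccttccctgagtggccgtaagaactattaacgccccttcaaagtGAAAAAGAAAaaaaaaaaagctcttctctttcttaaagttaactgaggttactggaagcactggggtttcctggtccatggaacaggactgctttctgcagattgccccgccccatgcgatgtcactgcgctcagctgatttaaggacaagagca
Slfn8: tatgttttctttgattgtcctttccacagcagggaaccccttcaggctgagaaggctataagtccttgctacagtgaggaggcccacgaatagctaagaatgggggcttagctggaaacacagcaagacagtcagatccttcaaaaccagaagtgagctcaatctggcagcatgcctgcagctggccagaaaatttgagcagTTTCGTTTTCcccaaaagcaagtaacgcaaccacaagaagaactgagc
Slfn9: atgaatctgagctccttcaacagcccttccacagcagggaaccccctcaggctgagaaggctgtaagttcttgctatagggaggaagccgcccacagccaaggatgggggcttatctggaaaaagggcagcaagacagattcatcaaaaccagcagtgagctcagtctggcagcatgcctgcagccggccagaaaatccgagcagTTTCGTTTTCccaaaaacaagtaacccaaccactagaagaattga
Slfn1: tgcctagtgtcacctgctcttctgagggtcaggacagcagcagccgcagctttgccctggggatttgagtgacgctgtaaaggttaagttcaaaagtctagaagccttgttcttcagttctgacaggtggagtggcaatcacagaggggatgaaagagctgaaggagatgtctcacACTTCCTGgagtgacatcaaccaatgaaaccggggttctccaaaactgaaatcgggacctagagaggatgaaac
Slfn4: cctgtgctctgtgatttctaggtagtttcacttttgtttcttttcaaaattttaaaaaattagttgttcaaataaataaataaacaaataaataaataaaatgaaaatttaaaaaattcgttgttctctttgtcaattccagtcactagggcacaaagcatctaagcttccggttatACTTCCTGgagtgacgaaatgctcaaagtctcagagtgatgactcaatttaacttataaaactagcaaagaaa
The interferon core was found in Slfn5, 155 bases before the start, in Slfn8, 48 before, and in Slfn9, 45 before. It was found in none of the windows of Slfn1, Slfn2, Slfn3 and Slfn4, and 3.04% of 27025 promoter windows hold it. The ETS form was found in Slfn1, Slfn2, Slfn3 and Slfn4, with the first match of each between 55 and 74 bases before the start. Slfn3 had 2 matches, the second of them nearer the start. The form was found in none of Slfn5, Slfn8 and Slfn9, and in 2.73% of all windows. The Slfn5 window lies inside the gene as GENCODE places it, downstream of the start given above. Slfn8 had 2 windows, and the other is not shown. A match is a run of letters, and factor binding was not measured.

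In CYR61 libraries every member was higher than in every control library, by 2.97-fold in mean CPM for Slfn2, 3.47-fold for Slfn5, 4.65-fold for Slfn8 and 4.98-fold for Slfn3, and by 29.5-fold for Slfn4 and 32.8-fold for Slfn1. The edgeR quasi-likelihood fit, which scales libraries by TMM, called 6 of 6 members higher at a Benjamini-Hochberg adjusted p under 0.05, where 1.12% of the 10422 genes tested were called higher and 1.16% in either direction. This count and the lack of overlap repeat how the members were chosen, and the share of all genes without overlap is not given here.

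Of the short members, Slfn2 was at 584, 583, 748 and 746 CPM in CYR61 replicates 1 to 4, against 199, 289, 260 and 150 CPM in control replicates 1 to 4 (665 ± 94.6 and 224 ± 62.3, SD, n = 4 each). The 4 CYR61 libraries lay close together and the lowest was above the highest control. Its log2 fold change was 1.61 (SE 0.21). Slfn1 was at 30.8, 18.8, 252 and 198 CPM in CYR61 replicates 1 to 4, against 0.873, 1.70, 10.7 and 1.99 CPM in control replicates 1 to 4. The CYR61 libraries of the later date were far above those of the earlier date, and the control libraries held 16 counts in all, against 1536 in CYR61 libraries. The log2 fold change of Slfn1 was 5.45 (SE 1.03).

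Of the intermediate members, Slfn4, a gene of immature and activated myeloid cells, was at 17.4, 15.8, 184 and 114 CPM in CYR61 replicates 1 to 4, against 2.62, 4.25, 2.37 and 1.99 CPM in control replicates 1 to 4. As for Slfn1, the later CYR61 libraries stood above the earlier ones, while all controls were low, with 18 counts in all. Its log2 fold change was 4.87 (SE 0.90). Slfn3, the neighbour of Slfn4, was at 34.5, 31.4, 26.1 and 55.3 CPM in CYR61 replicates 1 to 4, against 12.5, 9.34, 4.75 and 2.99 CPM in control replicates 1 to 4. The groups did not overlap, and the log2 fold change was 2.24 (SE 0.41). Of the 50-base runs in the last 500 bases of the Slfn3 transcript, 20.6% also occur in another Schlafen transcript, and 0% of those of Slfn4, Slfn1, Slfn2 and Slfn5 do. How the counting treated shared runs is not known.

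Of the long members, Slfn5 was at 700, 649, 1054 and 958 CPM in CYR61 replicates 1 to 4, against 316, 222, 208 and 223 CPM in control replicates 1 to 4 (840 ± 197 and 242 ± 49.7, SD, n = 4 each). Its log2 fold change was 1.82 (SE 0.21), and its transcript shares no 50-base run with another Schlafen gene. Whether counting kept reads of Slfn5 apart from its antisense partner is not given in the sources used here. Slfn8, a relative of human SLFN11, was at 101, 95.7, 148 and 152 CPM in CYR61 replicates 1 to 4, against 20.4, 43.3, 26.1 and 17.0 CPM in control replicates 1 to 4. The groups stood apart, with a log2 fold change of 2.27 (SE 0.29), and 3.10% of 50-base runs in the last 500 bases of Slfn8 are shared.

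**Figure D1:**
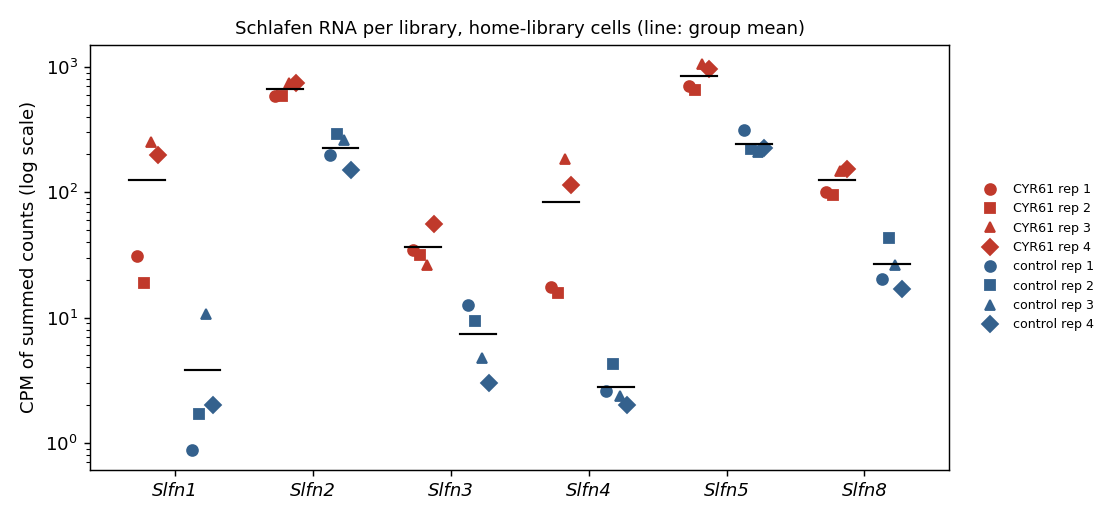
CPM of each member (log axis) in the 4 CYR61 libraries (red, left) and the 4 control libraries (blue, right), summed over home-library cells; symbols give the replicate and lines the group means. No member overlaps between groups, and the triangles and diamonds of the later date lie above the circles and squares of the earlier date for Slfn1 and Slfn4 in CYR61 libraries.

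The other Schlafen genes were not called in the same edgeR fit. Slfn9, a close relative of Slfn8, was at 118, 127, 32.2 and 48.1 CPM in CYR61 replicates 1 to 4, against 18.6, 107, 73.6 and 7.98 CPM in control replicates 1 to 4, so the groups overlapped (log2 fold change 0.76, SE 0.63, edgeR adjusted p = 0.988). Slfn10-ps was at 72.4, 79.4, 84.4 and 52.1 CPM in CYR61 replicates 1 to 4, against 18.6, 48.4, 33.2 and 12.0 CPM in control replicates 1 to 4. These groups did not overlap, but the gene missed the threshold (log2 fold change 1.43, SE 0.35, edgeR adjusted p = 0.117). With replicate number as a block it passed (log2 fold change 1.61, edgeR adjusted p = 0.0176). It shares 17.5% of the 50-base runs of its last 500 bases with other Schlafen transcripts. Slfn14, a ribosome-linked endonuclease of the red cell and platelet lineages, had 0 counts in every library, which allows at most 0.215 to 2.61 CPM in CYR61 and 0.873 to 3.56 CPM in control libraries at 3 counts per library.

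**Figure D2:**
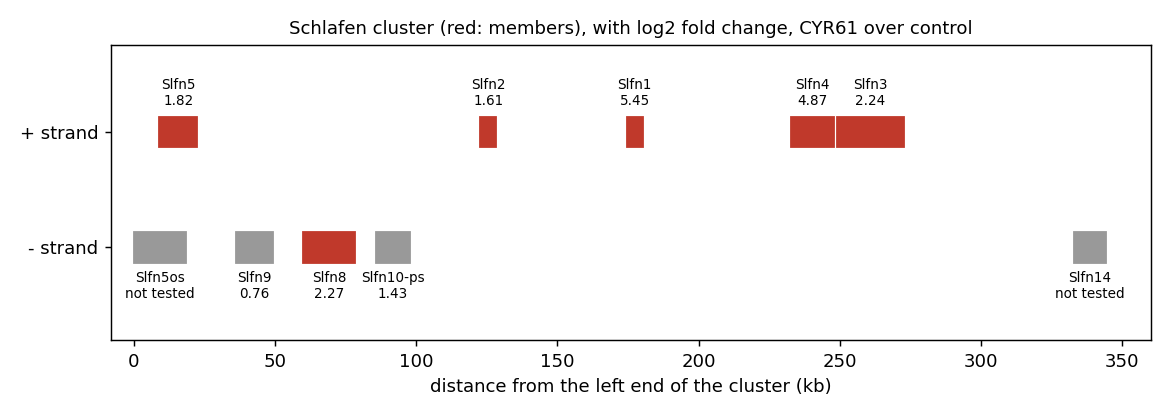
The Schlafen cluster by distance from its left end in kb, with genes of the + strand above those of the - strand; members are red, other genes grey, and the number under each name is its log2 fold change, CYR61 over control. Slfn9 (0.76) and Slfn10-ps (1.43), which were not called in the fit without a block, lie between members, whose values run from 1.61 for Slfn2 to 5.45 for Slfn1.

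Around the cluster, 18 other protein-coding genes lie within 300 kb, and 9 were tested. Ccl5, a chemokine induced in activated macrophages, was the single one called (log2 fold change 4.40, SE 0.83, edgeR adjusted p = 0.0197). The other tested neighbours, among them Lig3, Rad51d, Taf15 and Ccl9, lay between -0.80 and 0.58 on the log2 scale and were not called.

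These values rest on the assignment of each barcode to its home library. With all 12848 passing barcodes the members' log2 fold changes were 0.89 for Slfn2, 0.92 for Slfn5, 1.10 for Slfn3, 1.19 for Slfn8, 1.83 for Slfn1 and 1.95 for Slfn4. No member was then called by edgeR, nor was any of the 11148 genes tested, that is 0%, though 279 had an unadjusted p under 0.05. With only barcodes that had at least 90% of their UMIs in the home library, 5 of 6 members and 87 of 7400 genes were called. Slfn3 was not (log2 fold change 1.88, edgeR adjusted p = 0.195).
In quiet cells alone, defined below, 5 of 6 members were called higher, where 1.15% of genes were, and Slfn3 was not (log2 fold change 1.83, edgeR adjusted p = 0.0644). Without neutrophil-marker cells, also defined below, 6 of 6 were called higher, where 117 of 10342 genes were. The members' log2 fold changes then ran from 1.69 for Slfn2 to 6.55 for Slfn1. Leaving out CYR61 replicate 4 or control replicate 2 left 3 of 6 members called higher, where 74 of 9312 and 97 of 11624 genes were. The members called were Slfn2, Slfn5 and Slfn8. The others had log2 fold changes of 5.09 and 5.27 for Slfn1, 1.99 and 2.29 for Slfn3, and 4.66 and 5.05 for Slfn4. Without control replicate 1 or 4, Slfn1 and Slfn4 were not called (4.79 and 5.42 for Slfn1, 4.78 and 4.83 for Slfn4), and without control replicate 3, Slfn3 and Slfn4 were not (2.12 and 4.83).

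The dates were compared because Slfn1 and Slfn4 split by date within the CYR61 group. At the later date the log2 fold change over control was 5.17 for Slfn1, 1.84 for Slfn2, 3.38 for Slfn3, 6.01 for Slfn4, 2.19 for Slfn5 and 2.78 for Slfn8. At the earlier date it was 4.56, 1.40, 1.64, 2.51, 1.43 and 1.86 in the same order. With 2 libraries a group, edgeR called 5 of 6 members higher at the later date, all but Slfn3, where 0.887% of genes were called higher. At the earlier date it called Slfn1 alone, where 0.459% were. The difference between dates was 3.56 for Slfn4 (SE 0.76, edgeR interaction test, adjusted p = 0.404) and at most 1.77 for the others (adjusted p from 0.490 to 0.853). No gene of 11665 passed this test (0 called, 0%), and for 1150 the unadjusted p was under 0.05. Without control replicate 4 it called 345 genes, none of them a member (Slfn4 3.39, adjusted p = 0.0709). Both earlier CYR61 libraries carried Xist RNA and both later ones Y-linked RNA, so date and this split cannot be told apart within the CYR61 group.

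Slfn1 and Slfn4 also took a larger share of the members' UMIs at the later date. In CYR61 libraries Slfn1 made up 10.5% and 8.90% of these UMIs at the later date and 2.10% and 1.35% at the earlier date. Slfn4 made up 7.61% and 5.13% at the later date and 1.19% and 1.13% at the earlier date. Summed over the 6 members, the level was 1468, 1393, 2412 and 2224 CPM in CYR61 replicates 1 to 4, against 551, 569, 512 and 397 CPM in control replicates 1 to 4.

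The share of cells with a UMI was compared after each cell was thinned to 600 UMIs, which left out shallower cells (944 of the CYR61 and 385 of the control cells). Slfn5 was detected in 28.0%, 26.2%, 43.4% and 32.2% of cells in CYR61 replicates 1 to 4, against 12.6%, 10.9%, 9.54% and 12.7% in control replicates 1 to 4. Unthinned, its shares were 49.1% to 59.3% in CYR61 and 23.8% to 27.9% in control libraries. Slfn2 was detected in 27.6% to 31.8% of thinned CYR61 cells and 8.02% to 15.8% of thinned control cells, and Slfn8 in 4.53% to 9.04% and 0.415% to 1.13%. For these 3 genes the lowest CYR61 library was above the highest control library. Slfn4 was detected in 0.831% to 6.71% of thinned CYR61 cells and at most 0.415% of thinned control cells, with no overlap. For the other two the groups overlapped. Slfn1 was detected in 1.09% of cells in CYR61 replicate 2, its lowest, and in 1.24% in control replicate 3, its highest control. Slfn3 was detected in 0.875% of cells in CYR61 replicate 3, on 3 cells, and in 0.951% in control replicate 1. At least 2 members were detected together in 11.1% to 28.3% of cells in CYR61 libraries, against 1.23% to 3.32% in control libraries, and no member in 27.4% to 50.3% of CYR61 cells, against 74.4% to 79.6% of control cells. No cell type that should lack these genes was present in number to set a background. In barcodes with under 300 genes, which hold free RNA and small cells, the members summed to 840 to 1835 CPM in CYR61 and 238 to 409 CPM in control libraries, so part of the detection per cell may be free RNA, and that part was not tested.

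Within CYR61 libraries, detection of one member was compared between cells with and without another. Of cells with a Slfn5 UMI, 28.9%, 30.6%, 29.5% and 28.8% also had a Slfn2 UMI in CYR61 replicates 1 to 4, against 27.5%, 26.6%, 33.5% and 31.3% of cells without one. The share was thus higher in 2 and lower in 2 of 4 libraries. Slfn1 was detected in 17.4%, 6.90%, 17.4% and 14.7% of cells with a Slfn4 UMI, against 1.51%, 1.04%, 13.8% and 8.89% of cells without one, which is higher in 4 of 4 libraries but rests on 2 to 5 cells each.

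Much Slfn4 RNA lay in few cells. In CYR61 replicates 1 to 4, the 1% of cells with most Slfn4 held 65.9%, 68.2%, 39.3% and 45.2% of its UMIs, against 36.9%, 40.5%, 25.9% and 23.1% for Slfn1, 25.3%, 26.9%, 40.0% and 29.0% for Slfn3 and 11.6%, 9.94%, 19.8% and 14.8% for Slfn2. This share grows as a gene's counts fall. Slfn4 had 138 to 427 UMIs a library, Slfn1 244 to 740 and Slfn3 30 to 438, and in replicate 3 Slfn3, on 30 UMIs, was above Slfn4. Up to 47 Slfn4 UMIs were counted in 1 cell. Neutrophil-marker cells, with at least 3 of 600 thinned UMIs from the granule and calprotectin genes Ngp, Ltf, Camp, Lcn2, S100a8, S100a9 and Retnlg, numbered 28 of 1609, 60 of 3489, 55 of 343 and 55 of 754 thinned cells in CYR61 replicates 1 to 4, against 39 of 841, 9 of 266, 3 of 241 and 10 of 324 in control replicates 1 to 4. In these cells Slfn4 was at 626, 587, 526 and 741 CPM in CYR61 replicates 1 to 4, against 11.5, 10.8, 130 and 85.8 CPM in the other cells of the same libraries. It was higher in neutrophil-marker cells in 4 of 4 CYR61 libraries, a pattern noted after its values were seen and not tested. In the control libraries such cells held 1, 5, 1 and 1 Slfn4 UMIs.

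Slfn1 was at 226, 141, 225 and 300.5 CPM in neutrophil-marker cells of CYR61 replicates 1 to 4, against 29.2, 17.6, 264 and 194 CPM in the other cells. It was thus higher in neutrophil-marker cells in 3 of 4 libraries. Slfn5 was at 466, 505, 1111 and 828 CPM, against 711, 651, 1049 and 979 CPM in the other cells, and was higher in replicate 3 alone. In the other cells, without the neutrophil-marker cells, Slfn1 and Slfn4 still stood higher in both later CYR61 libraries than in both earlier ones.

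**Figure D3:**
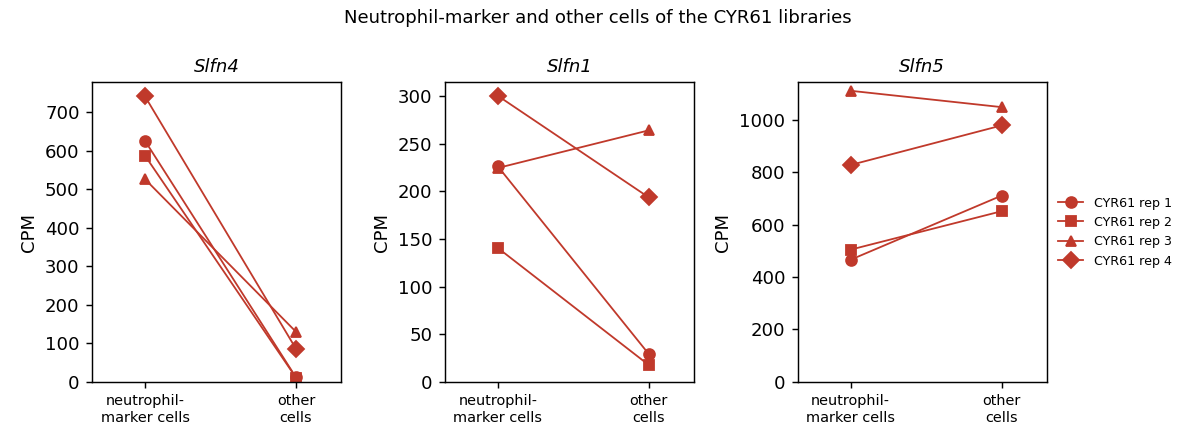
CPM of Slfn4, Slfn1 and Slfn5 in neutrophil-marker cells (left) and other cells (right) of each CYR61 library, joined by library. Slfn4 is at 526 to 741 CPM in neutrophil-marker cells and 10.8 to 130 CPM in the others, while Slfn5 shows no such order.

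Because the family is known for growth arrest, cycling cells were compared with quiet cells of the same library, a split that was not used to choose the members. A cell was cycling with at least 3 of its 600 thinned UMIs from a list of S phase and G2/M genes, and quiet with none. There were 945 cycling and 3852 quiet cells, with 3070 between them, and 411 cells at the limit and 910 just below it. Cycling cells made up 11.6%, 15.8%, 2.92% and 2.79% of CYR61 replicates 1 to 4 and 5.59%, 26.3%, 11.6% and 9.26% of control replicates 1 to 4, so CYR61 replicates 3 and 4 had 10 and 21 of them. In CYR61 replicate 4 the median was 5958 UMIs in cycling and 1085 in quiet cells. There, 7 cells held 113337 of the 174875 UMIs of cycling cells. Medians in the other libraries were 833.5 to 2450 UMIs in cycling and 1083 to 2216 in quiet cells.

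Slfn5 was lower in cycling cells in 8 of 8 libraries. It was at 310, 384, 393 and 423 CPM in cycling cells of CYR61 replicates 1 to 4, against 784, 743, 1053 and 987 CPM in their quiet cells. In control replicates 1 to 4 it was at 148, 203, 135 and 101 CPM in cycling cells, against 360, 264, 225 and 211 CPM in quiet cells. The log2 fold change was -1.18 (SE 0.14, edgeR quasi-likelihood test over 16 library sums with library as block, adjusted p = 3.52e-09). With G2/M genes alone it was -1.73, and with S phase genes alone -1.27, where Slfn5 was lower in 6 of 8 libraries. The change passed in CYR61 libraries alone (-1.28, adjusted p = 1.10e-26), where 6.3% of genes fell, and in control libraries alone (-0.97, adjusted p = 0.0454), where 0.369% fell, and the difference between the groups did not pass (edgeR interaction test, -0.35, adjusted p = 1). In the fit of CYR61 libraries alone the spread was in effect pooled over genes. Its p-values, here and below, do not measure each gene's own spread between libraries. With at least 2 thinned UMIs as the limit the change of Slfn5 was -0.67, and with at least 5 it was -1.92.

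Slfn9 went the other way. It was at 484, 419, 118 and 223 CPM in cycling cells of CYR61 replicates 1 to 4, against 53.3, 42.1, 28.2 and 38.1 CPM in their quiet cells. In control replicates 1 to 4 it was at 148, 247, 350 and 0 CPM in cycling cells, against 6.86, 44.4, 17.1 and 11 CPM in quiet cells. It was higher in cycling cells in 7 of 8 libraries, with control replicate 4, where 0 counts fell on 69174 UMIs, as the exception. The log2 fold change was 3.04 (SE 0.22, edgeR adjusted p = 8.81e-17), with 3.02 in CYR61 and 3.2 in control libraries alone. In CYR61 replicate 3 the level of Slfn9 in cycling cells rested on 3 counts in 10 cells. After thinning, 0 of 10 cycling and 3 of 237 quiet cells there had a Slfn9 UMI. In control replicate 2 the thinned shares were 5.71% and 5.41%. The thinned share was also higher in cycling cells of CYR61 replicates 1, 2 and 4 and control replicates 1 and 3. None of the 50-base runs in the last 500 bases of Slfn9 is shared with another Schlafen transcript.

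Among the 6 members, 2 fell in cycling cells, where 3.2% of the 8895 genes tested did, and none rose, where 6.28% did. Slfn4 was the second that fell (log2 fold change -1.26, SE 0.35, edgeR adjusted p = 0.0102), at 6.43, 6.88, 197 and 57.2 CPM in cycling cells of CYR61 replicates 1 to 4, against 24.0, 20.3, 168 and 136 CPM in quiet cells. It was lower in 5 of 8 libraries, and its cycling cells held 43 counts in all, 5 of them in the 10 cells of CYR61 replicate 3. The call was lost without neutrophil-marker cells (-0.67, adjusted p = 0.322), in DESeq2 (-0.89, adjusted p = 0.274) and without CYR61 replicate 1, 2 or 4 (-1.01, -1.04 and -1.18, adjusted p = 0.203, 0.209 and 0.0909). Neutrophil markers were higher in cycling than in quiet cells in 6 of 8 libraries (89.8 to 3477 and 283 to 2095 CPM) and monocyte markers in 7 of 8 (at most 275 and 54.1 CPM). Slfn5 kept its change without neutrophil-marker cells (-1.17), and the part of the other markers was not tested.

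The remaining members did not pass. Slfn2 was at 602, 574, 943 and 881 CPM in cycling cells of CYR61 replicates 1 to 4, against 583, 595, 725 and 722 CPM in quiet cells (log2 fold change 0.02 over all 8 libraries, SE 0.13, edgeR adjusted p = 0.969). Its changes lay within the spread between libraries, and the sign depended on the setting. Slfn8 had a log2 fold change of 0.20 (SE 0.21, adjusted p = 0.695). Slfn3 was at 55.2, 44.9, 39.3 and 109 CPM in cycling cells of CYR61 replicates 1 to 4, against 26.5, 27.6, 29.7 and 52.4 CPM in quiet cells. It was higher in cycling cells in 7 of 8 libraries, at a log2 fold change of 0.70 (SE 0.28, adjusted p = 0.124), and passed in CYR61 libraries alone (0.77, adjusted p = 0.00327), where 8.3% of genes rose, without control replicate 3 (0.75, adjusted p = 0.0366), with cells thinned to 1000 UMIs (0.81, adjusted p = 0.0375), with at least 5 thinned UMIs as the limit (0.97, adjusted p = 0.0221) and with all passing barcodes (0.82, adjusted p = 0.00205). Cycling cells held 1 Slfn3 count in CYR61 replicate 3, and 4, 5, 0 and 1 in control replicates 1 to 4. The share of thinned cells with a Slfn3 UMI was higher in cycling cells of CYR61 replicates 1, 2 and 4 and control replicate 2. No thinned cycling cell had one in CYR61 replicate 3 and control replicates 1, 3 and 4. Slfn1 was at -0.59 (SE 0.28, adjusted p = 0.224) and passed in CYR61 libraries alone (-0.60, adjusted p = 0.0340) and with all passing barcodes (-0.64, adjusted p = 0.0169). Slfn10-ps was at -0.27 (adjusted p = 0.650).

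**Figure D4:**
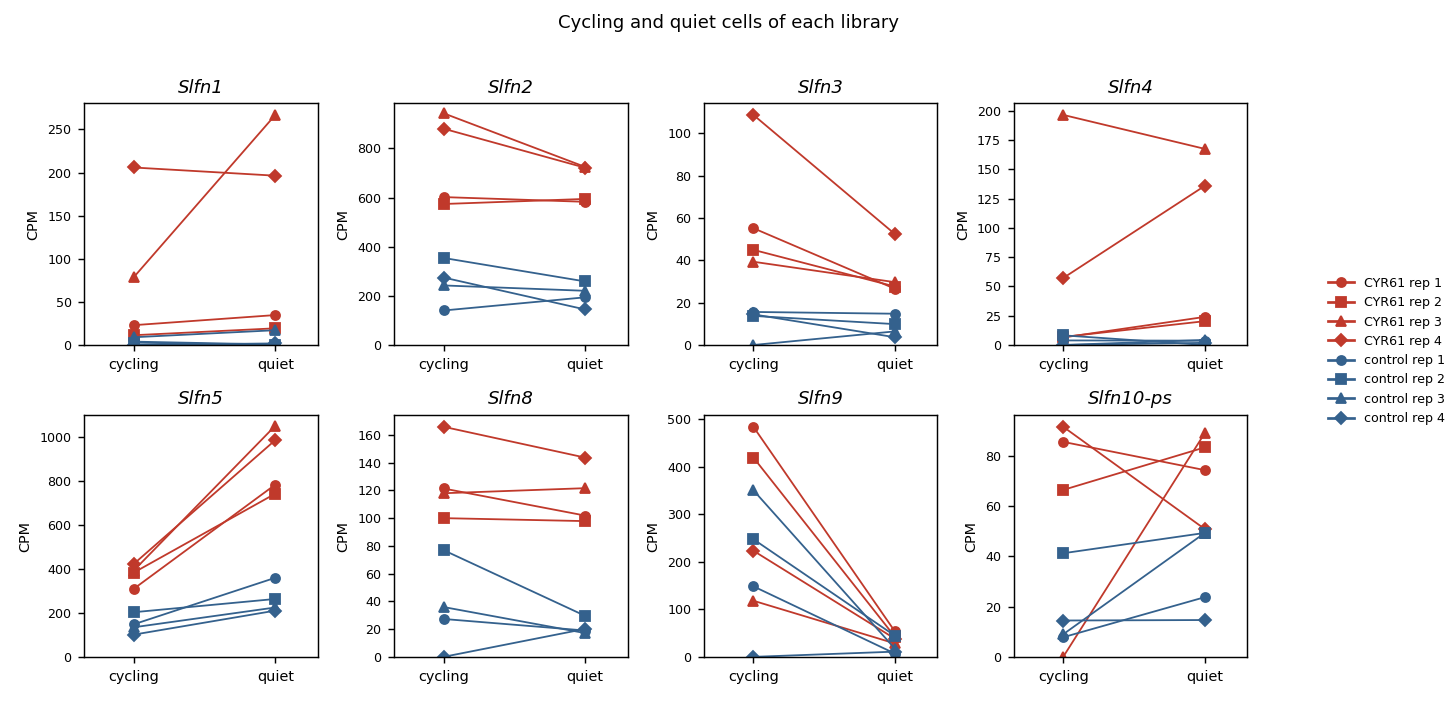
CPM of the 6 members, Slfn9 and Slfn10-ps in cycling cells (left) and quiet cells (right), joined by library, with CYR61 libraries in red and control libraries in blue. Slfn5 is lower in cycling cells in 8 of 8 libraries and Slfn9 higher in 7 of 8, while Slfn2 and Slfn8 show lines in both directions.

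For no member did the cycling difference between CYR61 and control libraries pass the interaction test (adjusted p = 1 for each). It was -2.01 for Slfn4 (SE 1.25), -0.84 for Slfn1 (SE 1.26) and 0.70 for Slfn3 (SE 0.75). With such errors the test cannot show that these members do not differ. The interaction test called 1 of 8895 genes (0.0112%), Ctsk, a cathepsin, named because the count was low (-2.55, adjusted p = 0.00884). The list called growth arrest holds 17 genes, among them the D-type cyclins and Myc, which promote cycling. Of these 17, Cdkn2c, Cdkn2d and Cdkn1a, inhibitors of cyclin-dependent kinases, rose in cycling cells (log2 fold changes 2.43, 2.10 and 0.51). Foxo3, a transcription factor of quiescence, fell (-0.71), and 13 did not pass. The list's median was 0.17, beside -0.05 over all genes. Between CYR61 and control libraries 0 of these 17 genes were called, and of the S phase and G2/M lists 0 of 24 and 0 of 29. Of 8 genes tested for tRNA binding or cleavage, the activity ascribed to Schlafen proteins, Dnmt3a, which encodes a DNA methyltransferase and is not known for cutting tRNA, fell in cycling cells (-0.57) and 7 did not pass.

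Within CYR61 libraries, cells were also split by 38 interferon response genes, a list that holds no Schlafen gene. Interferon-high cells had as many thinned UMIs of the list as the library's 75th percentile or more, and interferon-low cells as many as the 25th or fewer. In edgeR with library as block, 5 of 6 members rose in interferon-high cells, where 1.06% of 11057 genes did. Of the list itself 36 of 37 rose, as the split requires, with 1.78 for Ifit2 and 1.08 for Isg15 on the log2 scale. Macrophage markers were higher in interferon-high cells in 4 of 4 libraries (2769 to 3157 against 2475 to 2762 CPM) and neutrophil markers in 2 of 4 (258 to 1692 against 231 to 5708 CPM). Plasmacytoid dendritic cell markers, with Bst2 of the list among them, were higher in 4 of 4 (370 to 869 against 244 to 536 CPM) and megakaryocyte markers in 3 of 4 (615 to 1379 against 573 to 1198 CPM). The part of these markers in the differences was not tested.

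Slfn1 moved most. It was at 52.6, 26.5, 307 and 270 CPM in interferon-high cells of CYR61 replicates 1 to 4, against 13.5, 11.6, 174 and 102 CPM in interferon-low cells. All 4 libraries went the same way (log2 fold change 1.35, SE 0.14, edgeR adjusted p = 1.08e-06). Slfn3 was at 47.3, 40.9, 40.1 and 66.9 CPM, against 22.9, 22.9, 12.4 and 34.9 CPM in interferon-low cells (0.93, SE 0.15, adjusted p = 0.000534). Slfn8 was at 136, 117, 155 and 187 CPM, against 78.0, 75.2, 108 and 103 CPM in interferon-low cells (0.71, SE 0.09, adjusted p = 1.72e-05).

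Slfn5 and Slfn2 rose less. Slfn5 was at 862, 752, 1170 and 1097 CPM in interferon-high cells of CYR61 replicates 1 to 4, against 577, 545, 1082 and 846 CPM in interferon-low cells (0.41, SE 0.06, edgeR adjusted p = 0.000281). Slfn2 was at 678, 633, 765 and 819 CPM, against 506, 549, 618 and 636 CPM in interferon-low cells (0.31, SE 0.06, adjusted p = 0.00507). Both were higher in interferon-high cells in 4 of 4 libraries. Slfn4 was at 30.1, 26.3, 186 and 98.8 CPM, against 7.28, 6.87, 274 and 89.0 CPM in interferon-low cells, lower in replicate 3 alone (0.77, SE 0.26, adjusted p = 0.386). It passed without CYR61 replicate 3 (1.17, adjusted p = 0.0119) and without a filter on low counts (0.79, adjusted p = 0.000181). Without CYR61 replicate 1 or 2, Slfn2 (adjusted p = 0.440 and 0.0821), Slfn3 (0.0844 and 0.0635) and Slfn5 (0.0959 and 0.107) did not pass, and without replicate 4 Slfn2 did not (0.0800), with log2 fold changes between 0.28 and 1.04 in these fits. Without library as block no member passed (adjusted p = 1 each), at 0.32 for Slfn2 to 1.37 for Slfn1 among the 5 that had.

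Slfn9 rose by 0.59 (SE 0.11, edgeR adjusted p = 0.00287), a call lost with cells thinned to 1000 UMIs (0.28, adjusted p = 0.424), in DESeq2 (0.67, adjusted p = 0.128) and without CYR61 replicate 1 (0.46, adjusted p = 0.828), and Slfn10-ps did not pass (0.12, adjusted p = 0.999).

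**Figure D5:**
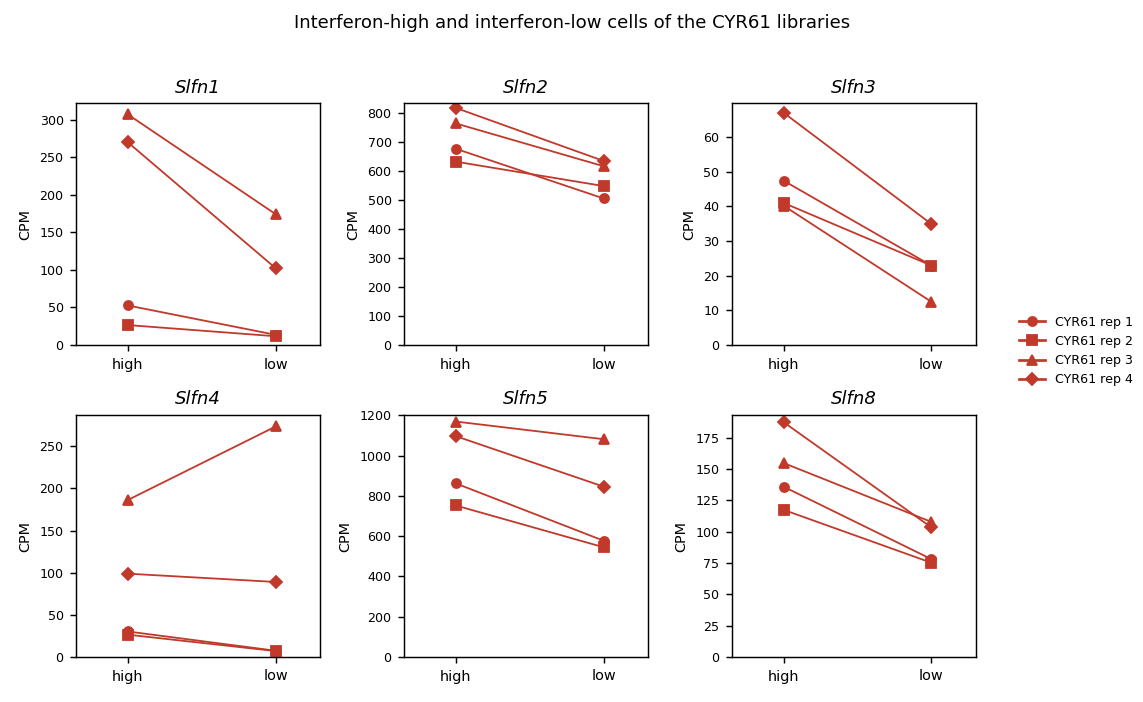
CPM of the 6 members in interferon-high cells (left) and interferon-low cells (right) of each CYR61 library, joined by library. Every member but Slfn4 is higher in interferon-high cells in 4 of 4 libraries, and Slfn4 is lower in replicate 3.

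In control libraries the same split compared cells with at least 1 thinned UMI of the list with cells with 0. It called 4 of 8427 genes and no member, where 0.0119% of genes were called higher. Slfn2 was at -0.17, Slfn5 at -0.00 and Slfn8 at -0.16 on the log2 scale (edgeR adjusted p = 1.0 each), and Slfn1, Slfn3 and Slfn4 had too few counts to be tested. Whether the split differs between CYR61 and control libraries was not tested.

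For each member the 3 genes with the most similar pattern over the 8 libraries were found. The measure was the root-mean-square difference in log2 CPM after centring each gene. Slfn2 was closest to Gvin-ps7, a pseudogene of the interferon-inducible very large GTPases, and to Parp12 and Sp100 (0.113 to 0.18). Slfn5 was closest to Parp14, Znfx1 and Ms4a6d (0.189 to 0.225) and Slfn8 to Trim30a, Ms4a6c and Ifi203 (0.202 to 0.284). Slfn3 was closest to Herc6, Atp10a and Eva1b (0.307 to 0.318). Slfn4 was closest to Irf7, Il1b and Acod1 (0.592 to 0.777) and Slfn1 to Ifit2, Ms4a4c and Acod1 (0.964 to 1.041), distances that were several times those of Slfn2.

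Of the interferon response list, 33 of 36 genes tested rose with CYR61, with a median log2 fold change of 3.11 beside -0.02 over all genes and 2.25 over the 6 members. Oasl2, a relative of the sensors of viral RNA, rose by 3.51, Ifit1, which binds foreign RNA, by 5.63, Isg15, a ubiquitin-like modifier, by 4.05 and Cmpk2, a nucleotide kinase, by 3.93. Of 13 tested genes of interferon receptors and signalling, 4 rose, among them Irf7 (4.63), which amplifies interferon production, and Stat2 (2.15) and Irf9 (1.03), which carry the interferon signal to the nucleus. The other 9 did not pass. Within CYR61 libraries 4 of 15 rose in interferon-high cells, among them Irf7 (0.62), Irf1 (0.59) and Stat2 (0.54), and in cycling cells Gbp2 of the response list and Irf8 of the signalling list fell (-0.98 and -0.66).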

How the data were processed

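Gene expression was measured by single-cell RNA sequencing on the HIVE platform in 4 CYR61 and 4 control libraries of mouse bone marrow cells. The deposited files hold raw UMI counts per gene and barcode, 5000 barcodes a library, and the build is mm10 per the submitters' processing notes. The aligner, the counting software and whether counting used strand are not stated in the sources at hand.

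Barcodes with at least 300 genes and at most 20% mitochondrial UMIs were kept, each in the library of its date stamp where it had most UMIs. Doublets were not called. Counts were summed per library, or per library and cell state, and tested with edgeR 4.0.16 (quasi-likelihood test, TMM, its default filter on low counts) in R 4.3.3, with Benjamini-Hochberg adjustment over all genes tested and a threshold of 0.05. DESeq2 1.42.0 was an alternative. Cell states were assigned on cells thinned to 600 UMIs, and their counts were summed unthinned, with library as block. Because thinned and summed UMIs come from the same cells, genes of the lists that define a state differ by construction. CPM is a gene's count over the UMIs of the cells summed, times 1e6.

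On simulated counts, the CYR61 comparison recovered 44% of genes changed 2-fold and 100% of those changed 4-fold (9852 genes), and the cycling comparison 99% and 100% (7994 genes). The changed genes were drawn from those at or above the median count, so recovery at lower counts was not simulated. Dispersions followed the fitted trend, and the simulated libraries held no split by date or Xist RNA. The home-library cells held 842528 to 13933610 UMIs a library. Limits from a count of 0 use 3 counts and cover counting error only.

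Members, gene lists and tests were chosen with earlier results of these data known. All Schlafen genes were named, with up to 4 called genes per list and direction of smallest p, the 3 genes most like each member, and protein-coding neighbours within 300 kb. Shared runs of 50 bases were found in the GENCODE vM21 transcripts. The alternatives covered scaling, the filter, cell limits, the definition of states, single libraries, dates and the barcode rule. A comparison of monocyte-marker cells was not run, since 20 cells had the markers and 5 of 8 libraries none. A gene of the signalling list is not reported here by name.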

Additional observations from a re-analysis of the deposited data

Results flagged for a closer look

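Slfn1 stood apart in control replicate 3, at 10.7 CPM, against 0.873 to 1.99 CPM in the other control libraries. Of its 9 counts there, 6 came from 3 neutrophil-marker cells. The share of cells with a Slfn1 UMI at 600 UMIs was 1.24% in that library and 0% to 0.119% in the others, where a count of 0 allows up to 1.13% in control replicate 2 and 0.926% in control replicate 4. Slfn5 stood apart in control replicate 1, at 316 CPM, against 208 to 223 CPM in the other control libraries, and remained below every CYR61 library. The test of the highest and lowest library was made on 24 groups of 4 libraries and marked 3, where chance marks about 5% of groups.

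Barcodes with under 300 genes entered no comparison. In them the 6 members summed to 840, 865, 1835 and 1524 CPM in CYR61 replicates 1 to 4, above the 238 to 409 CPM in control libraries.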

How the results depend on the processing

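Slfn5 kept its call and direction in cycling cells in all 22 alternatives run, from -1.92 to -0.67. Of the CYR61 comparison, genes called numbered 121, with 183 in DESeq2, 239 without a filter, 236 with a block for Xist or Y-linked RNA, 0 with all passing barcodes and 74 to 127 with 1 library left out. Members called numbered 6, with 0 for all passing barcodes, 1 at the earlier date alone and 3 to 6 with 1 library left out. The date comparison called 0 genes, 180 without a filter, where Slfn4 passed (3.46, edgeR adjusted p = 0.0310), and 0 to 345 with 1 library left out, where the Slfn1 difference ranged from -0.20 to 2.21. The cycling comparison called 844 genes, 236 without the library block, 1297 with at least 5 UMIs, 2007 with all passing barcodes, 1565 and 197 in CYR61 and control libraries alone, and 544 to 1010 with 1 library left out. Slfn2, at 0.02 there, changed sign without a filter (-0.033), with at least 5 UMIs (-0.075), G2/M (-0.050) or S phase genes alone (-0.15), all passing barcodes (-0.26), in CYR61 libraries alone (-0.044) and with 1 library left out (-0.031 to 0.093). The interferon comparison called 128 genes, 73 in DESeq2, 0 without the library block (92 at an unadjusted p under 0.05), 57 to 182 with 1 library left out, and 4 in control libraries, where Slfn2 (-0.17), Slfn5 (-0.0042), Slfn8 (-0.16) and Slfn9 (-0.72) changed sign. For each of these the cause was not tested, and the fits with some libraries left out also held fewer libraries. Same-numbered libraries had correlations of -0.198, 0.324, -0.0874 and 0.314, of mixed sign, which cannot settle whether the replicate numbers pair the samples. With the replicate block 117 genes and 6 members were called. Few counts limit Slfn1, Slfn3 and Slfn4 in control libraries (16, 61 and 18 counts in all).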
